A study of Mus musculus with 21 samples.

Results

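Transcripts of 10 genes that encode load-sensing proteins of the sarcomere and its Z-disc were examined in mouse gastrocnemius after training, after a break in training and without training. The genes are Ankrd1, Ankrd2, Ankrd23, Csrp3, Xirp1, Xirp2, Flnc, Myoz2, Actn2 and Actn3. They were taken by symbol, by no rule on a measured value, from the 40853 genes of the count table. The list was nevertheless chosen with earlier results of these data known. All 10 had counts in all 21 libraries, and all 10 were among the 16129 genes that passed the filter on low counts and were tested. The animals were female C57BL/6NJ mice that were 10 weeks old at the start, with 7 mice and 7 libraries in each of 3 groups. Inactive mice lived in standard cages with enrichment, Active mice ran on a treadmill on 5 days a week for 6 weeks, and Activity Reduction mice ran for 4 weeks and were then untrained for 2 weeks. A full session lasted 40 min and reached 70% of maximal running speed. Before collection mice were fasted, for 5 to 6 h by the sample records and 4 to 6 h by the paper's methods. Every mouse, those of the Inactive group included, ran a last maximal test 48 to 72 h before collection. The Inactive group was therefore untrained but had also run shortly before sampling. RNA of the whole medial belly was selected for poly(A) and sequenced, which blends all fibre types and the cells between them, so fewer cells of a type and less RNA per cell cannot be told apart. Libraries held 49284630 to 59785132 counted reads in the Inactive group, 38482455 to 49211581 in the Active group and 48906675 to 55773226 in the Activity Reduction group.

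The Z-disc anchors the thin filaments of neighbouring sarcomeres and the ends of titin, and it is a site at which muscle fibres sense tension. Proteins held there or on the elastic part of titin can leave for the nucleus or be replaced when fibres are stretched or damaged, and transcripts of several of them are known to rise in muscle and heart after overload, stretch or denervation. Other members of the group are the cross-linkers themselves, whose isoforms differ between fast and slow fibres.

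The libraries were first checked for their tissue and for samples that stood apart. Fast fibre transcripts dominated, and Myh4, the fastest myosin heavy chain, was the most abundant of 9 markers of mature skeletal muscle with a mean normalized count of 4003000, where a normalized count is a read count divided by the DESeq2 size factor of its library. The defining marker with a low count was Mylpf, the fast regulatory light chain, with a mean of 113 ± 19.3 (SD, n = 7) in the Inactive group, and because the annotation used for counting is not given in the sources used here, this count is not read as its level. Of 8 heart muscle markers, the atrial light chain Myl7 was at 0 in every library and the most abundant was Myl4, with a mean normalized count of 471. Liver transcripts divided the libraries into 8 with more, with a median albumin (Alb) level of 784 CPM, counts scaled to the library total, and 13 with fewer, with a median of 118 CPM. The 8 were Active replicates 1 to 5, Activity Reduction replicates 1 and 2 and Inactive replicate 1, so the division was uneven over the groups and the comparisons of the 10 genes were also made within it. These 8 are also the first 8 by the number in their sample label, and the part of sample order in the division was not tested. The summed normalized count of the 20 liver markers reached 96330 in the Active, 77800 in the Activity Reduction and 111200 in the Inactive group, with medians of 80230, 16980 and 13120. The amount of slow fibre transcript also varied. The slow fibre level, the mean log2(normalized count + 1) of 10 slow markers of which the calcium pump Atp2a2 was the most abundant, ran from 12.75 to 13.07 in the Inactive, 11.76 to 13.07 in the Active and 11.22 to 12.94 in the Activity Reduction group.

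None of the 10 transcripts was differentially expressed between any groups. The call required an edgeR quasi-likelihood adjusted p under 0.05, adjusted over all 16129 genes, and an absolute log2 fold change over 0.25. In Active against Inactive muscle 0 of 10 members passed, and the share of all tested genes that passed was also 0%. In Activity Reduction against Inactive muscle 0 of 10 passed beside 0.0124% of all genes, which were the methyltransferase gene Smyd2 and the potassium channel gene Kcnj11. In Activity Reduction against Active muscle 0 of 10 passed beside 0% of all genes. DESeq2 called 0 of the members in each comparison as well, beside 0.216%, 0.0732% and 0.401% of all genes to which it gave a p, although it gave no adjusted p to Csrp3 and Ankrd1 in Activity Reduction against Inactive muscle. At an unadjusted DESeq2 p under 0.05 there were 1, 2 and 1 members, where 11.5%, 7.77% and 13.6% of the genes tested had such a p. At an unadjusted edgeR p under 0.05 there were 0 members in Active against Inactive muscle, where 10.9% of all genes had such a p (6.18% higher and 4.69% lower). There were 2 members, Csrp3 and Ankrd2, both higher, in Activity Reduction against Inactive muscle, where 7.73% of genes had such a p (4.19% higher and 3.54% lower). There was 1 member, Actn3, also higher, in Activity Reduction against Active muscle, where 13.3% of genes had such a p (6.89% higher and 6.44% lower). The ranges of the groups overlapped for all 10 members in every comparison, as they did for all but 0.254%, 0.118% and 0.291% of the tested genes in the same order of comparisons. The median log2 fold change of the members was 0.06, 0.03 and 0.02 in that order, and that of all tested genes lay within 0.01 of 0. The comparisons share groups, so their values are given side by side and are not independent of each other.

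**Figure D1:**
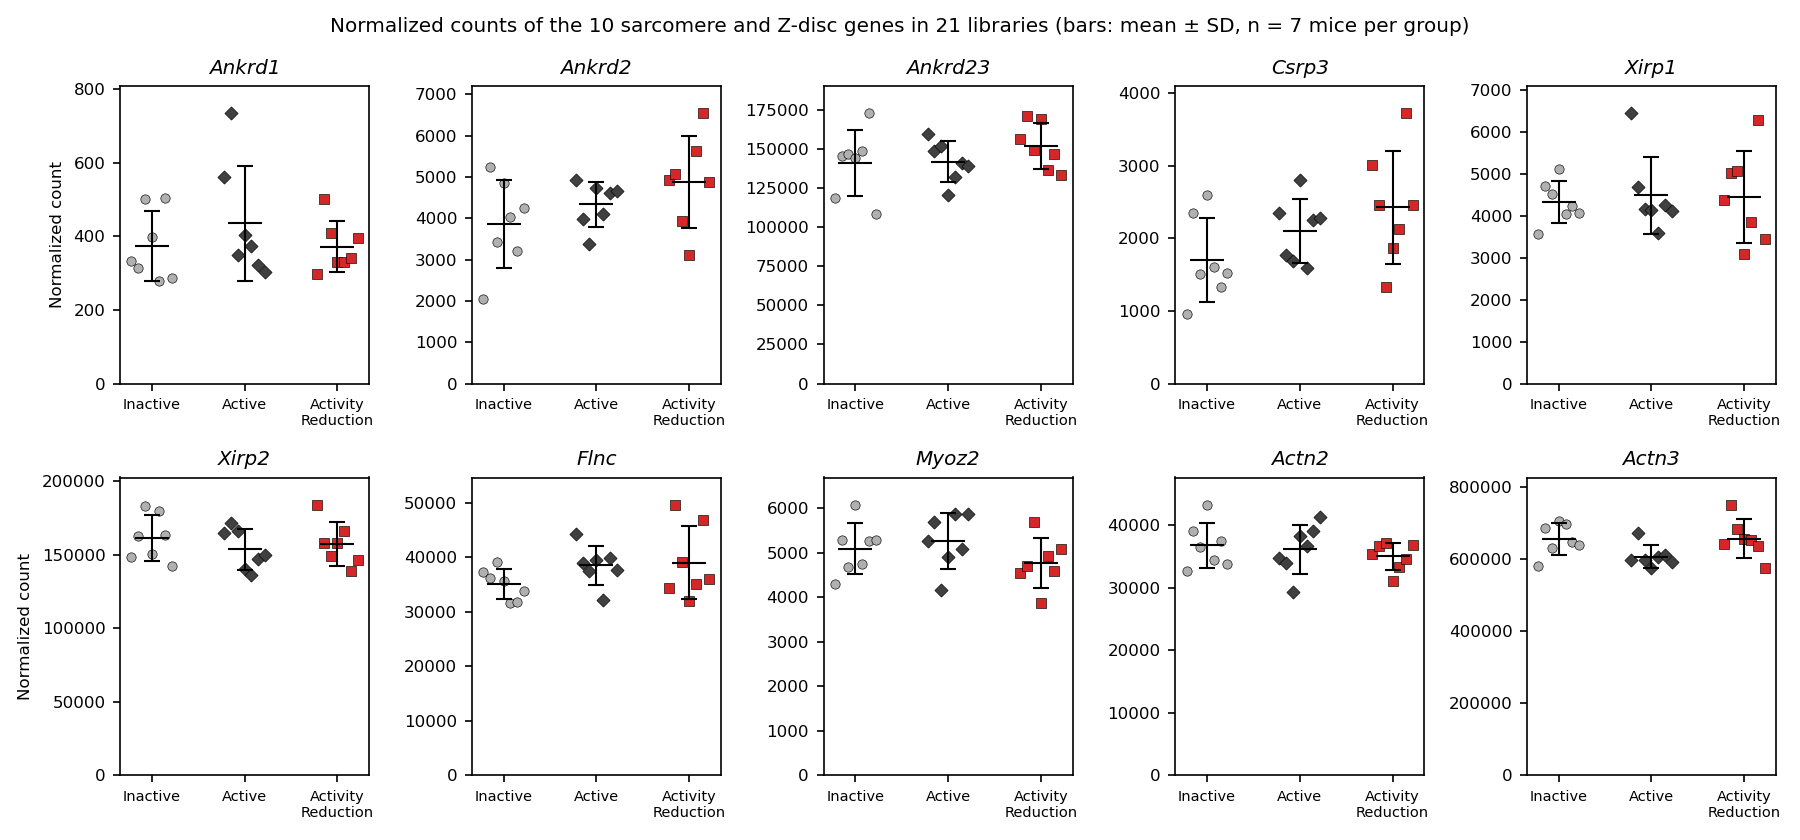
Normalized counts (each panel with its own axis from 0) of the 10 genes by group, 1 point per mouse in replicate order, with bars for the mean ± SD (n = 7). The groups overlap in every panel, and the points spread most, relative to their mean, for Csrp3, Ankrd1 and Ankrd2.

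The muscle LIM protein gene Csrp3 had the largest difference of the 10. Its product is a LIM domain protein of the Z-disc and nucleus that binds alpha-actinin and is required for normal muscle and heart architecture. Csrp3 lies on the minus strand at chr7:48480142-48497901 (GRCm39, here and below). Its normalized count was lowest at 960, with a median of 1526 and a highest value of 2602, in the Inactive group. The corresponding values were 1591, 2251 and 2800 in the Active group and 1336, 2461 and 3726 for Activity Reduction. The lowest library of all was Inactive replicate 1 and the highest Activity Reduction replicate 6, and although the groups overlapped, all 7 Active and 6 of 7 Activity Reduction mice exceeded the Inactive median. The means were 1698 ± 577, 2104 ± 438 and 2429 ± 777 (SD, n = 7), so that Activity Reduction muscle was 43.0% above Inactive muscle. The log2 fold change was 0.52 (SE 0.207, 95% interval 0.09 to 0.96) with an edgeR adjusted p of 0.552, and the two-sided exact permutation test of the means gave p = 0.0717. Active against Inactive muscle gave 0.32 (95% interval -0.12 to 0.75) and Activity Reduction against Active muscle 0.21 (-0.23 to 0.64), and neither passed. Among the 11 libraries of these groups low in liver transcripts the log2 ratio of means of Activity Reduction to Inactive was 0.34, and in the others, where Inactive replicate 1 was the only Inactive mouse, it was 1.51. Leaving out single libraries moved the log2 fold change between 0.38, without Activity Reduction replicate 6, and 0.65, and without that same library Activity Reduction against Active muscle gave 0.07.

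Ankrd2 followed the same order of group means. Ankrd2 encodes a muscle ankyrin repeat protein that binds titin and telethonin and moves to the nucleus of stretched or injured fibres, and it lies on the plus strand at chr19:42024274-42033552. Its lowest, median and highest normalized counts were 2056, 4034 and 5230 in the Inactive group, 3377, 4614 and 4920 in the Active group and 3106, 4919 and 6544 in the Activity Reduction group. Inactive replicate 1 and Activity Reduction replicate 6 were again the extremes, and the groups overlapped broadly. Means were 3860 ± 1073, 4340 ± 542 and 4868 ± 1109 (SD, n = 7). Activity Reduction against Inactive muscle had a log2 fold change of 0.34 (SE 0.163, 95% interval -0.0026 to 0.68) with an edgeR adjusted p of 0.644 and an exact permutation p of 0.110, and 5 of 7 mice exceeded the Inactive median. The log2 ratio was 0.21 among libraries low in liver transcripts. Leaving out Inactive replicate 1 took the log2 fold change to 0.23, the lowest value without a single library. Active against Inactive muscle gave 0.18, and 0.07 without Inactive replicate 1, and Activity Reduction against Active muscle gave 0.16, and 0.07 without Activity Reduction replicate 6.

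Csrp3 and Ankrd2 also varied together from mouse to mouse. Spearman's rho between them over the 21 libraries was 0.796, the highest of the 45 pairs that the 10 genes can form. Among the 11013 tested genes with a mean normalized count of at least 100, Csrp3 ranked 1st in likeness to Ankrd2, and Ankrd2 ranked 2 in likeness to Csrp3 after Tomm20, a subunit of the mitochondrial import pore (rho 0.827). The pair held a rho of 0.812 once group means were removed, 0.738 in the 8 libraries rich in liver transcripts and 0.802 in the other 13. The pair was singled out as the highest, so these values are a description without a test. Because these members moved together, the 250 bases before the start of the Ensembl canonical transcript of each gene are given, read from GRCm39 on the strand of the gene (5′ to 3′, chr19:42024024-42024273 for Ankrd2 and chr7:48497902-48498151 for Csrp3). Capitals mark every match to the motifs searched on both strands.
Ankrd2: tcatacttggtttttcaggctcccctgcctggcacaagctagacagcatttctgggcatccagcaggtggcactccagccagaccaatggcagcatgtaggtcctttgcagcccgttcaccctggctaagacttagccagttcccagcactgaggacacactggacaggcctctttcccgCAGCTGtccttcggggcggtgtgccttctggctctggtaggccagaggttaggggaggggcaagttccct
Csrp3: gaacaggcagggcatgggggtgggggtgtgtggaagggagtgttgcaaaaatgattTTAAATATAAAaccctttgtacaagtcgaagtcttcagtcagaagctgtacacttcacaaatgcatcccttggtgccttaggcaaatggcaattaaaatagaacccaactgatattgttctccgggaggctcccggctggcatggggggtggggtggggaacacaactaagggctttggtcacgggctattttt
The capitals in Ankrd2 are an E-box of the letters CAGCTG, the kind of site that myogenic regulatory factors bind, 70 to 65 bases before the start. The capitals in Csrp3 are a MEF2 site 194 to 185 bases before the start, which overlaps a TATAAA match at 189 to 184. CAGCTG was present in 11.9% of 21757 mouse windows of this length and placement, the MEF2 site in 2.79% and TATAAA in 11.9%. The windows of the pair shared none of the motifs searched. The windows of the other members were placed in the same way, and those of Ankrd23, Xirp1, Xirp2 and Actn2 lie inside the gene, since the canonical transcript starts downstream of the outermost start. Over all 10 members CAGCTG was found in 2 (Ankrd1 and Ankrd2), the MEF2 site in 2 (Csrp3 and Xirp2), TATAAA in 1 (Csrp3), the M-CAT element CATTCC, which TEAD factors bind, in 1 (Ankrd23, against 12.1% of all windows), and the CArG box of serum response factor in 0 (against 1.40%). A match of letters is a description and not evidence of a bound site.

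**Figure D2:**
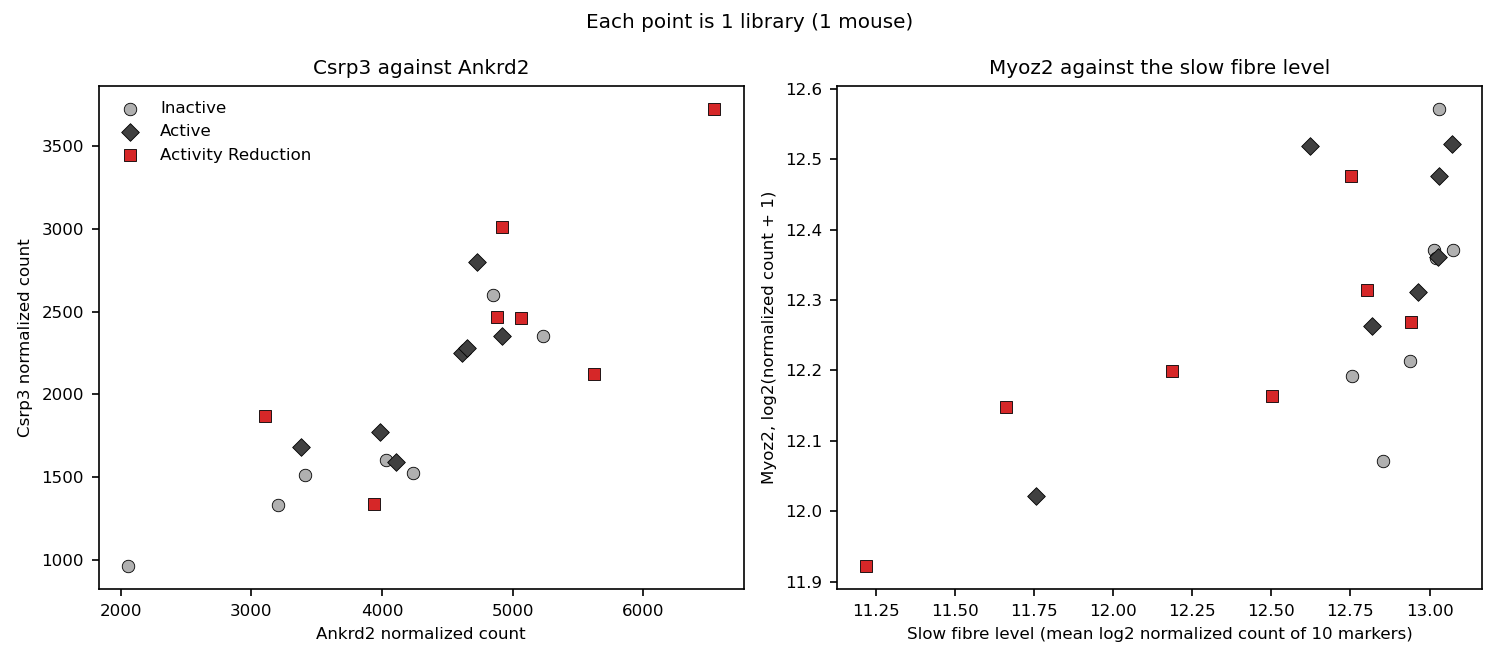
Left, normalized count of Csrp3 against that of Ankrd2, and right, Myoz2 as log2(normalized count + 1) against the slow fibre level (mean log2 of 10 slow markers), 1 point per library and a symbol per group. Csrp3 and Ankrd2 rise together across all groups (rho 0.796), and the libraries with the lowest slow fibre level, down to 11.22, have low Myoz2 values.

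The remaining ankyrin repeat genes were less alike to that pair over all libraries, with rho to Ankrd2 of -0.12 for Ankrd1 and -0.11 for Ankrd23, although Ankrd23 and Ankrd2 had a rho of 0.762 in the liver-rich and -0.626 in the liver-poor libraries. Ankrd1, whose product CARP is known from stretched and failing heart muscle and binds titin, lies on the minus strand at chr19:36089352-36097506. Its lowest, median and highest normalized counts were 279, 334 and 504 in the Inactive, 303, 375 and 736 in the Active and 297, 340 and 501 in the Activity Reduction group. Active replicates 1 and 2 stood above all other mice, with 561 and 736, while the remaining Active mice lay inside the range of the other groups. The means of 374 ± 95.9, 435 ± 158 and 372 ± 69.4 (SD, n = 7) gave log2 fold changes of 0.22 for Active against Inactive muscle (95% interval -0.17 to 0.61, exact permutation p = 0.421) and -0.0025 for Activity Reduction against Inactive muscle (-0.39 to 0.39). Activity Reduction against Active muscle gave -0.22 (-0.62 to 0.17, exact permutation p = 0.384). Both high Active libraries were among those with more liver transcripts, and among the other libraries the log2 ratio of Active (n = 2) to Inactive (n = 6) was -0.29. The log2 ratio of Activity Reduction (n = 5) to Active (n = 2) in these libraries was 0.21. Leaving out Active replicate 2 took the log2 fold change of Active against Inactive muscle to 0.05 and that of Activity Reduction against Active muscle to -0.05. Ankrd1 averaged 444 ± 147 in the 8 libraries rich in liver transcripts and 363 ± 74.5 in the other 13, and the part of the liver transcripts in this difference was not tested. In GENCODE vM39, 24.3% of the Ankrd1 exon bases overlap the noncoding RNA gene Gm56671 on the other strand. Gm56671 is not listed in the count table, so its part in the Ankrd1 count was not tested.

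Ankrd23, the diabetes-related ankyrin repeat protein that binds the same stretch of titin, lies on the minus strand at chr1:36563865-36575964 and was far more abundant. Its normalized count had a lowest value of 108639, a median of 145350 and a highest value of 173003 in the Inactive group, 120466, 141251 and 159676 in the Active group and 133532, 149079 and 171274 in the Activity Reduction group. The Inactive group spanned both other groups. The means were 140840 ± 21160, 141870 ± 13120 and 151860 ± 14810 (SD, n = 7). The log2 fold changes were 0.02 in Active against Inactive muscle (95% interval -0.16 to 0.19), 0.11 in Activity Reduction against Inactive muscle (-0.06 to 0.29) and 0.10 in Activity Reduction against Active muscle (-0.08 to 0.27), with edgeR adjusted p of 0.961, 0.816 and 0.647. Without Inactive replicate 7 the first 2 were -0.04 and 0.05, and the first was also -0.04 in the liver-poor libraries alone, so the order of the Inactive and Active means was not stable. Ankrd23 shares 45.9% of its exon bases with Gm42417 on the same strand in GENCODE vM39, a gene not listed in the count table, and 14.4% with Cnnm3 on the other strand, whose mean normalized count was 0.492% of that of Ankrd23.

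The Xin repeat proteins and filamin C bind actin filaments at Z-discs, at muscle ends and at sites of fibre damage. Xirp1, which encodes Xin and is known to rise in regenerating fibres, lies at chr9:119842821-119852664 on the minus strand. Its lowest, median and highest normalized counts were 3577, 4233 and 5128 in the Inactive, 3603, 4167 and 6456 in the Active and 3092, 4383 and 6282 in the Activity Reduction group. The medians were close and 1 Active mouse, replicate 1, lay apart from the other 6. The group means of 4330 ± 509, 4493 ± 923 and 4451 ± 1102 (SD, n = 7) gave log2 fold changes between -0.01 and 0.06. Of the variance 0.426% lay between groups, where the median of 11013 tested genes with a mean normalized count of at least 100 was 12.3%. Without Active replicate 1, Active against Inactive muscle turned to -0.05 and Activity Reduction against Active muscle to 0.10. Without Activity Reduction replicate 6, Activity Reduction against Inactive muscle turned to -0.06.

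Xirp2, whose product is the larger Xin protein myomaxin, lies at chr2:67004178-67356962 on the plus strand. It ranged from 142387 to 183244 normalized counts in the Inactive, 136428 to 171837 in the Active and 139193 to 184109 in the Activity Reduction group, with medians of 162769, 149532 and 158150. The groups covered nearly the same range, and the log2 fold changes were -0.06 (95% interval -0.21 to 0.08), -0.03 (-0.18 to 0.11) and 0.03 (-0.11 to 0.17) for Active against Inactive, Activity Reduction against Inactive and Activity Reduction against Active muscle. Leaving out single libraries moved them from -0.09 to -0.03, from -0.08 to -0.00046 and from -0.02 to 0.06, in that order.

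Flnc, the muscle filamin that cross-links actin at the Z-disc edge and the sarcolemma and is turned over under tension, lies at chr6:29433072-29461887 on the plus strand. Its lowest, median and highest normalized counts were 31698, 35568 and 39168 in the Inactive, 32153, 38899 and 44207 in the Active and 32004, 36055 and 49708 in the Activity Reduction group. Of the Active mice 6 of 7 exceeded the Inactive median, whereas Activity Reduction mice split, 4 above and 3 below, and held the highest single values. Both trained groups had higher means, 38535 ± 3606 in the Active and 39046 ± 6710 in the Activity Reduction group against 35068 ± 2795 in the Inactive group (SD, n = 7). Neither difference passed, with a log2 fold change of 0.14 (95% interval -0.04 to 0.32) and an exact permutation p of 0.0635 for Active, and 0.16 (-0.02 to 0.34) and an exact p of 0.195 for Activity Reduction. Without Activity Reduction replicate 2 the latter was 0.09.

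Myoz2 encodes calsarcin-1, which tethers the phosphatase calcineurin to alpha-actinin at the Z-disc and is typical of slow fibres and heart. It lies at chr3:122797610-122828664 on the minus strand. Its lowest, median and highest normalized counts were 4301, 5258 and 6087 in the Inactive, 4157, 5261 and 5881 in the Active and 3879, 4700 and 5698 in the Activity Reduction group. The groups overlapped, and 1 of 7 Activity Reduction mice exceeded the Inactive median and 1 of 7 the Active median. The log2 fold changes were -0.14 against Active muscle (95% interval -0.32 to 0.03, exact permutation p = 0.151) and -0.09 against Inactive muscle (-0.27 to 0.09), and neither passed. The latter was -0.05 without Inactive replicate 4 and -0.14 without Activity Reduction replicate 3.

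The alpha-actinins cross-link the actin filaments of the Z-disc, Actn2 in all fibres and Actn3 in fast fibres only. Actn2 lies at chr13:12281303-12356693 on the minus strand and had means of 36781 ± 3666 in the Inactive, 36174 ± 3964 in the Active and 35028 ± 2209 normalized counts in the Activity Reduction group (SD, n = 7), with log2 fold changes between -0.07 and -0.02. Its lowest and highest values were 32616 and 43338, 29255 and 41287, and 31096 and 37202 in the same order of groups, so the highest Activity Reduction mouse lay below the highest mice of the other groups. The log2 fold change of Active against Inactive muscle turned to 0.03 without Active replicate 3. It was 0.10 with only the libraries with fewer liver transcripts.

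Actn3 lies at chr19:4911215-4928529 on the minus strand and was the most abundant member. Its lowest, median and highest normalized counts were 580301, 647162 and 705735 in the Inactive, 574643, 595875 and 671546 in the Active and 573436, 651555 and 750679 in the Activity Reduction group. Active mice clustered low with the exception of replicate 2, while the other groups reached higher and overlapped the Active range at their low ends. The log2 fold change of Active against Inactive muscle was -0.10 (SE 0.0530, 95% interval -0.22 to 0.01, edgeR adjusted p = 0.479), 1 of 7 Active mice exceeded the Inactive median, and the exact permutation test of the means gave p = 0.0402. That was the single exact p under 0.05 among 30 such tests of the members, which were not adjusted for their number. Activity Reduction against Active muscle gave 0.11 (SE 0.0530, 95% interval 0.00034 to 0.22, edgeR adjusted p = 0.365, exact permutation p = 0.0501), with 6 of 7 mice above the Active median, and 0.08 when Activity Reduction replicate 2 was left out. Activity Reduction against Inactive muscle gave 0.01 (-0.10 to 0.12). Of the Actn3 exon bases, 26.8% overlap Ctsf on the other strand, whose mean count was 0.189% of that of Actn3. Restricted to libraries low in liver transcripts, the log2 ratio of Active (n = 2) to Inactive (n = 6) was -0.15, and restricted to those rich in them (n = 5 and n = 1) it was 0.07.

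**Figure D3:**
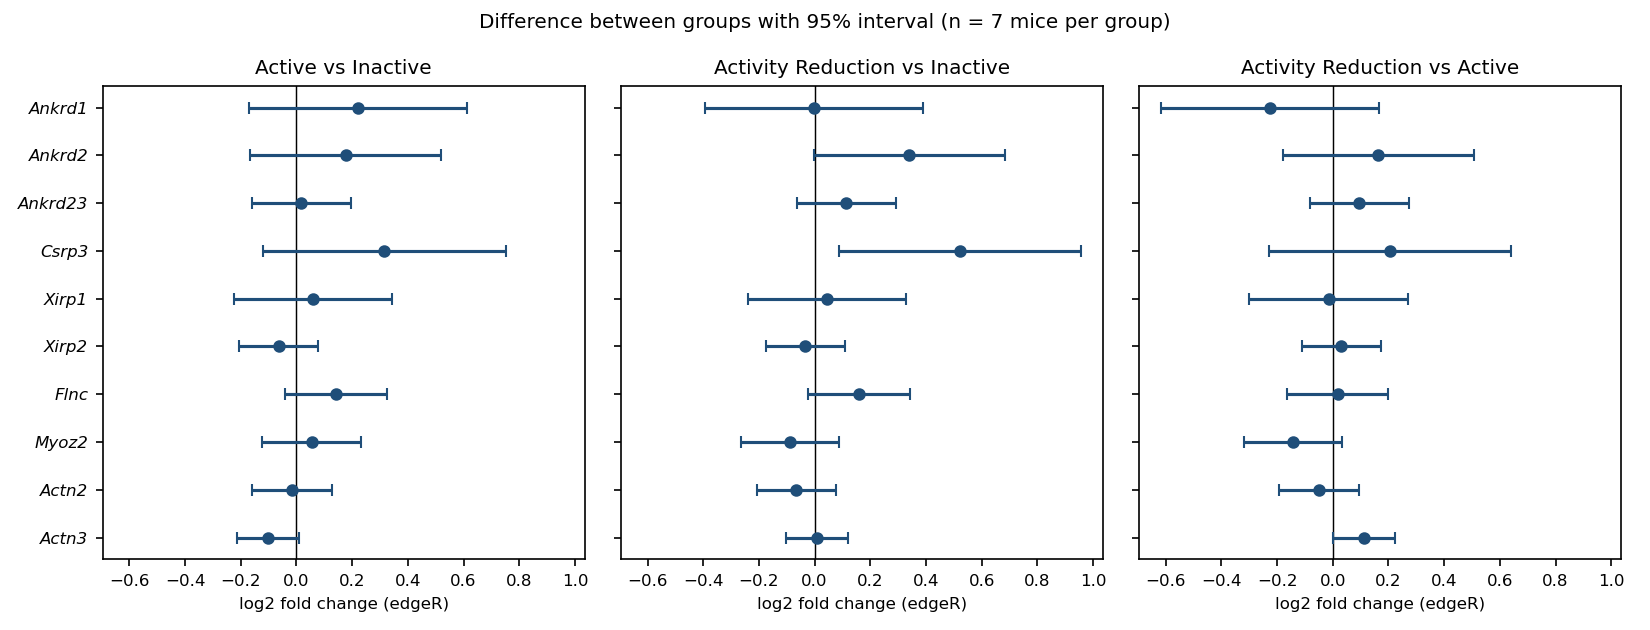
log2 fold changes of the 10 genes in the edgeR fit for each comparison, points for the estimate and horizontal bars for the 95% interval (n = 7 mice per group). The intervals clear 0 for Csrp3 in Activity Reduction against Inactive muscle (0.09 to 0.96) and narrowly for Actn3 in Activity Reduction against Active muscle (0.00034 to 0.22), and neither passed the adjusted threshold. The bars use the residual degrees of freedom alone, so that for Ankrd2 in Activity Reduction against Inactive muscle the bar reaches below 0 although the unadjusted edgeR p is 0.0488.

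The members differed in how far mice of the same group lay apart, with Csrp3, Ankrd1 and Ankrd2 the most variable and the cross-linker Actn3 the least. The within-group SD of log2 values was 0.430 for Csrp3, 0.369 for Ankrd1, 0.348 for Ankrd2 and 0.274 for Xirp1, which placed them at percentiles 95.8, 94.3, 93.5 and 88.5 of 11013 genes with a median SD of 0.133. Flnc, Ankrd23 and Myoz2 lay between percentiles 66.2 and 66.9, Actn2 and Xirp2 near the middle at 51.4 and 50.5, and Actn3 at 27.3 with an SD of 0.0978. From the lowest to the highest of the 21 libraries Csrp3 spanned 3.88-fold, Ankrd2 3.18-fold, Ankrd1 2.64-fold, Xirp1 2.09-fold and Actn3 1.31-fold. Counting error amounted to 4.96% for Ankrd1, the least abundant member, in the Inactive group, where its coefficient of variation between mice was 25.6%. The share of variance between groups was 24.8% for Actn3, 22.9% for Csrp3 and 17.1% for Ankrd2, and the median tested gene had 12.3%.

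Across mice most members were weakly alike, and a few pairs stood out. Of their 45 pairs, 30 had a positive and 15 a negative Spearman's rho over the 21 libraries, with a median of 0.169 and a range from -0.268 to 0.796. Only 4 pairs exceeded 0.5, namely Ankrd2 with Csrp3 (0.796), Xirp1 with Flnc (0.616), Ankrd23 with Xirp2 (0.604) and Myoz2 with Actn2 (0.603). Each of 8 genes appeared in 1 of these pairs, while Ankrd1 and Actn3 appeared in none. With group means removed the values were 0.812, 0.623, 0.692 and 0.597. In the 8 liver-rich and the 13 liver-poor libraries they were 0.738 and 0.802 for Ankrd2 with Csrp3, 0.690 and 0.632 for Xirp1 with Flnc, 0.50 and 0.434 for Ankrd23 with Xirp2, and 0.452 and 0.709 for Myoz2 with Actn2. Many genes outside the group were as alike, for Flnc was ranked 20 among 11012 genes in likeness to Xirp1, Actn2 was 73 for Myoz2 and Xirp2 was 201 for Ankrd23. All libraries share their size factors with every gene, and the correlations carry no test.

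**Figure D4:**
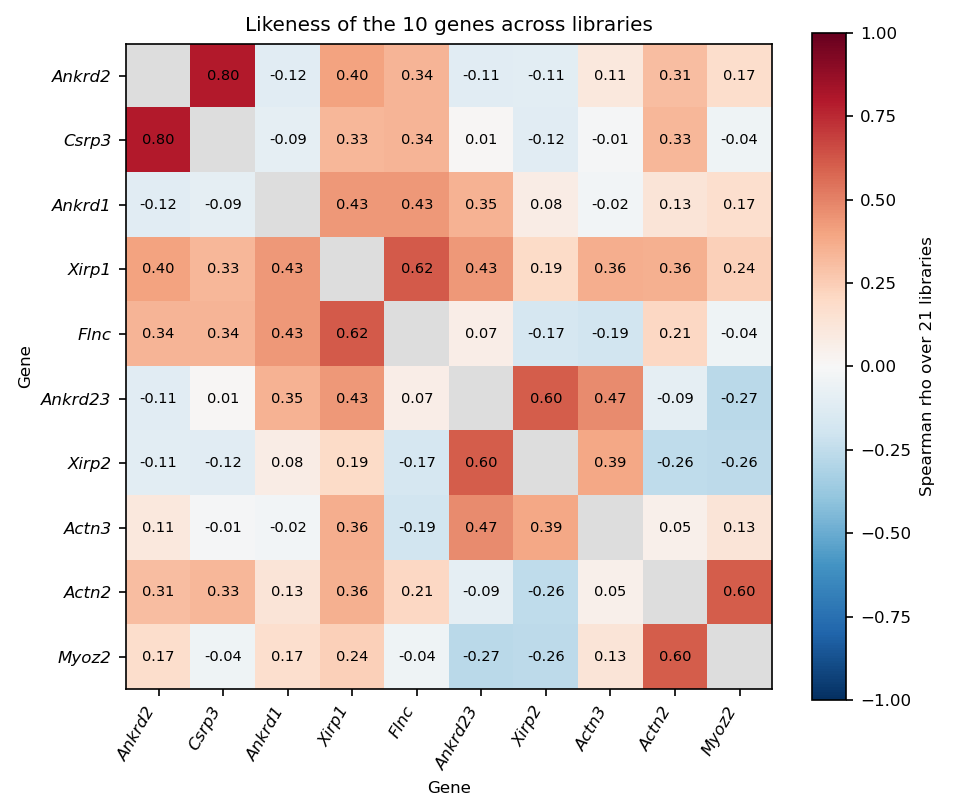
Spearman's rho over 21 libraries for each pair of the 10 genes, printed in each cell and coloured from blue (negative) to red (positive), with rows and columns ordered to place alike genes next to each other. The highest cell is Ankrd2 with Csrp3 at 0.796, and Ankrd1 and Actn3 have no cell over 0.5.

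Of the 30 places taken by the 3 genes most like each member over the 21 libraries, 3 were held by genes of the lists examined here, namely Csrp3, Ankrd2 and Rcan1. Ankrd23 was closest to the transcription factor gene Maf (rho 0.865), then to Arhgef10l (0.858) and Rasa4 (0.845). Xirp2 was closest to Mbd5 (0.843) and to the deubiquitinase genes Usp9x (0.813) and Usp34 (0.784). Xirp1 was closest to Utp20 (0.747) and Rab11fip3 (0.742) and then to Rcan1 (0.709), a calcineurin inhibitor, and Flnc to the deubiquitinase gene Usp28 (0.813), the kinase gene Csnk1d (0.810) and Uhrf1bp1 (0.748). Myoz2 was closest to genes of mitochondrial proteins, Coq8a of coenzyme Q synthesis (0.794) and Ogdh of the citric acid cycle (0.757), with the scaffold gene Homer2 between them (0.781). Actn2 was closest to the nuclear receptor gene Esrrb (0.773), then to AI854703 (0.736) and Gm11716 (0.730). Actn3 was closest to the ubiquitin ligase gene Mkrn2 (0.862), the translation factor gene Eif3h (0.853) and Aup1 (0.844). Ankrd1 had the weakest neighbours, Edem1 (0.662), Rexo4 (0.656) and Zfp362 (0.648). After Csrp3, Ankrd2 was closest to Rab15 (0.757) and Sec13 (0.699), and the third gene for Csrp3 was Rnaset2b (0.755).

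The slow fibre level was compared with each member because several of them differ between fibre types. Of the 10 slow markers, 7 were lower in Activity Reduction than in Inactive muscle at an unadjusted edgeR p under 0.05, where 3.54% of all tested genes were, and 0 were called, with a median log2 fold change of -0.62 and log2 fold changes of -0.74 for Myh7, the slow myosin heavy chain (SE 0.276, edgeR adjusted p = 0.506), and -0.70 for Atp2a2 (SE 0.209, edgeR adjusted p = 0.368). In Active against Inactive muscle 0 of the 10 had such a p, and in Activity Reduction against Active muscle 2 were lower, where 6.44% of all tested genes were. Their summed normalized counts were 122400 ± 10490 in the Inactive, 108300 ± 27690 in the Active and 81610 ± 31050 in the Activity Reduction group (SD, n = 7), and no slow marker was at 0. The markers belong to the same fibre type, so their number is not one of independent genes. Activity Reduction replicates 4, 1 and 2 had slow fibre levels of 11.22, 11.66 and 12.19. The other Activity Reduction mice had 12.50 to 12.94, beside 12.75 to 13.07 in the Inactive group. The group difference in this level was not tested. Myoz2 followed this level, with Pearson's r = 0.716 (permutation p = 0.00013) and Spearman's rho = 0.699 (permutation p = 0.00059) over 21 libraries. Its r was 0.586 without Activity Reduction replicates 4 and 1, the libraries farthest from the median slow level, 0.597 in the 8 liver-rich libraries, 0.785 in the 13 liver-poor libraries and 0.715 with group means removed. Actn2 had r = 0.535 (permutation p = 0.0138) but rho = 0.343 (permutation p = 0.128), and r = 0.299 and 0.612 in the liver-rich and liver-poor libraries, 0.496 without the same 2 libraries and 0.510 (permutation p = 0.0187) with group means removed. Ankrd23 had a negative r of -0.436 (permutation p = 0.0480) and a rho of -0.339 (permutation p = 0.135). Its r was -0.432 in the liver-rich and -0.471 in the liver-poor libraries, and -0.339 (permutation p = 0.135) with group means removed. Without Activity Reduction replicates 4 and 1 it was -0.266, so the relation rested in part on those 2 libraries. The other 7 members had r between -0.204 and 0.257 with permutation p of 0.260 or more. Csrp3 and Ankrd2, typical of slow fibres in textbook accounts, had r of -0.151 and 0.155, although Ankrd2 reached r = 0.477 (permutation p = 0.0291) and rho = 0.394 (permutation p = 0.0794) with group means removed. These 10 relations were not adjusted for their number. The part of slow fibre content in the Myoz2 values of the Activity Reduction group was not tested beyond these relations.

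Compared per length, the 10 transcripts covered a range of about 1050-fold. In RPKM, computed here as counts per kb of exon scaled to the library total, the median over 21 libraries was 2523 for Actn3, 638 for Ankrd23, 214 for Xirp2, 78.4 for Flnc, 69.6 for Ankrd2, 67.7 for Actn2, 13.8 for Myoz2, 13.8 for Xirp1, 10.8 for Csrp3 and 2.41 for Ankrd1. Actn3 exceeded Ankrd23, Ankrd23 exceeded Xirp2, and Xirp2 exceeded Flnc in all 21 libraries. Flnc exceeded Ankrd2 in 17 libraries, Ankrd2 exceeded Actn2 in 9, and Myoz2 exceeded Xirp1 in 9, so the order of these neighbours was not resolved by their spread. The gap below Actn2 and the gap above Ankrd1 held in all 21 libraries. Actn3, the fast fibre actinin, therefore stood far above Actn2 per kb in this fast muscle, and Ankrd1 was the lowest member in every library. The order within the middle depended on the length used. With the canonical transcript in place of the union of exons, Actn2 moved to rank 4 at 114, above Flnc at 82.7, and Csrp3 to rank 7 at 41.8, above Myoz2, with Xirp1 at 15.8 in rank 9, while ranks 1, 2, 3 and 10 were held by the same genes.

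**Figure D5:**
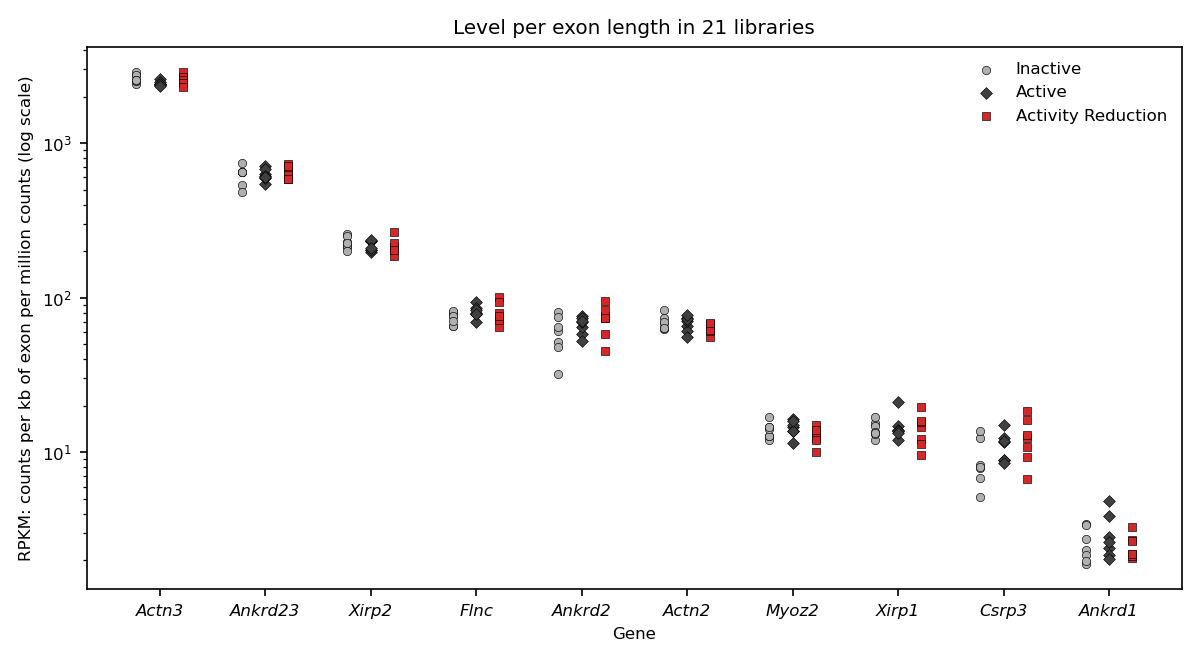
RPKM (log scale) of the 10 genes, ordered by their median, 1 point per library and a symbol per group. Actn3, Ankrd23 and Xirp2 stand apart at the top (medians 2523, 638 and 214) and Ankrd1 at the bottom (2.41), and the groups overlap for each gene.

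The wider set of Z-disc genes was examined next. Of 37 other Z-disc and titin-linked genes, 0 were called by edgeR in any comparison. At an unadjusted p under 0.05, 4 were higher and 2 lower in Active than in Inactive muscle, 7 higher and 2 lower in Activity Reduction than in Inactive muscle, and 7 higher and 4 lower in Activity Reduction than in Active muscle, or 16.2%, 24.3% and 29.7% of the list, where 10.9%, 7.73% and 13.3% of all tested genes had such a p. The genes with the smallest p were Flna, the widely expressed filamin (log2 fold change 0.20, SE 0.0748, edgeR adjusted p = 0.359), and Synpo2, a partner of filamin and alpha-actinin (0.09, SE 0.0380, edgeR adjusted p = 0.413), in Active against Inactive muscle. In Activity Reduction against Inactive muscle they were Synpo2 (0.14, edgeR adjusted p = 0.331) and the PDZ and LIM domain gene Pdlim5 (0.24, edgeR adjusted p = 0.445). In Activity Reduction against Active muscle they were Trim54, a ubiquitin ligase of the sarcomere (0.18, SE 0.0421, edgeR adjusted p = 0.105), and Myoz1, the fast fibre relative of Myoz2 (0.17, SE 0.0435, edgeR adjusted p = 0.128). Myoz1 had a mean of 96160 ± 4440 in Activity Reduction and 85630 ± 4410 normalized counts in Active muscle, whereas the mean of Myoz2 was lower in Activity Reduction muscle.

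The other lists of the sarcomere and of its signalling partners also had 0 genes called by edgeR in each comparison, and the counts that follow are at an unadjusted p under 0.05, which 10.9%, 7.73% and 13.3% of all tested genes had. Of 8 M-band, obscurin and myosin binding protein C genes, 0, 2 and 2 were higher in Active against Inactive, Activity Reduction against Inactive and Activity Reduction against Active muscle, and 0 were lower. Myom2, the fast fibre myomesin, had a log2 fold change of 0.21 against Inactive muscle (SE 0.0520, edgeR adjusted p = 0.288) and 0.15 against Active muscle (edgeR adjusted p = 0.230). It was joined by Mybpc1, slow myosin binding protein C, at 0.18 (edgeR adjusted p = 0.349) against Inactive and by Myom1 at 0.10 (edgeR adjusted p = 0.358) against Active muscle, and the smallest p in Active against Inactive muscle belonged to Mybpc1 (0.11) and Myom3 (0.12). Of 12 genes of the filamin chaperone complex and the small heat shock proteins, 1 was lower in Active than in Inactive muscle, 3 were higher in Activity Reduction than in Inactive muscle and 1 was higher than in Active muscle. The autophagy receptor gene Sqstm1 had the smallest p in the first and last of these, at -0.16 (SE 0.0673, edgeR adjusted p = 0.396) and 0.26 (SE 0.0673, edgeR adjusted p = 0.123), followed by the small heat shock gene Hspb8 at -0.15 and the chaperone gene Hspa8 at 0.08. Against Inactive muscle the smallest p in Activity Reduction muscle belonged to the ubiquitin ligase gene Stub1 (0.16, edgeR adjusted p = 0.624) and Hspb6 (0.15, edgeR adjusted p = 0.640). Of 14 genes of the YAP and TEAD pathway, whose targets include Ankrd1, 3 were higher in Active than in Inactive muscle, with the smallest p for Axl at 0.48 (SE 0.155, edgeR adjusted p = 0.297) and Ccn2 at 0.49 (SE 0.177, edgeR adjusted p = 0.336). In Activity Reduction against Inactive muscle 0 of these 14 had such a p, with Vgll2 at 0.21 and Lats1 at 0.09 the nearest. Against Active muscle 1, Axl, was lower (-0.41, edgeR adjusted p = 0.258), followed by Wwtr1 at -0.11. Of 9 calcineurin and NFAT genes, 0 had such a p against Inactive muscle in either trained group, where the smallest p belonged to Nfatc2 (0.13) and Nfatc4 (0.21) in Active and to Rcan2 (-0.17) and Ppp3r1 (0.09) in Activity Reduction muscle. Against Active muscle Ppp3ca, a catalytic subunit of calcineurin, was higher (0.11, edgeR adjusted p = 0.296) and Nfatc4 lower (-0.32, edgeR adjusted p = 0.347) in Activity Reduction muscle. The lists were not compared with each other or tested within the liver division.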

How the data were processed

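Poly(A) RNA of gastrocnemius from 21 female mice was measured. The authors used fastp to trim paired reads, STAR for alignment to GRCm39 and featureCounts for counting, and deposited 1 table of raw counts per gene, in which each of the 3 groups has 7 columns mapped by the labels. Tool versions, the annotation and the strand setting of the counting are not given in the sources used here. A further deposited table, named as normalized, held the same values (857913 compared, 0 differing) and was not used. Reads from genes that overlap without a known strand setting cannot be told apart.

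Counts were fitted with edgeR 4.0.16 (TMM scaling, filterByExpr, quasi-likelihood F test, all 21 libraries, group as the single term) in R 4.3.3, with Benjamini-Hochberg adjustment over 16129 genes. Intervals are 95% with 18 residual degrees of freedom, whereas the edgeR p also uses the spread shared between genes, so an interval can include 0 where that p is under 0.05. DESeq2 1.42.0 size factors gave the normalized counts, and DESeq2 was an alternative test. Differences of means were tested with two-sided exact permutation tests, whose smallest possible p with 7 against 7 is 0.000583, and correlations with 100000 permutations (scipy 1.17.1). Benjamini-Hochberg adjustment over the 10 slow fibre relations had been planned and is not given, because the genes were chosen as a list. Levels per kb used exon lengths from GENCODE vM39, and promoter windows of 250 bases were read from GRCm39. Paralogs of the members aligned to them at under 95% identity throughout, Actn2 and Actn3 at 76.0%. On simulated data for Activity Reduction against Inactive muscle, 80% of changes of log2 0.5 and 96% of those of log2 1 were recovered. The changed genes were drawn at random above a low level and were not matched to the high spread of Csrp3, Ankrd1 and Ankrd2. More genes were changed than were called in the real data, which eases the adjusted threshold. These shares are therefore a check of the fit and do not give the power for the members. The shares for the other comparisons are not given here.

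Libraries were divided at the largest gap in the summed log2(CPM + 0.1) of 20 liver genes. The text names all members, the 2 genes with the smallest p of each wider list per comparison, the most abundant gene of each marker list and those at 0, the 3 genes most like each member, and every gene called, and 1 marker list is not reported here. Exceptions named after their values were seen are Mylpf, Myh7, Scx, Kera, Acta1, Myh6, Tnnt2 and the repeated comparison of Myoz1 with Myoz2. The members and the lists were chosen with earlier results of these data known, so no list count is independent support. Alternatives were other scaling, no filter, DESeq2, a replicate block, the liver division as covariate or restriction, a fit to each pair of groups, and single libraries left out.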

Additional observations from a re-analysis of the deposited data

Results flagged for a closer look

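In 3 of 33 sets of 7 libraries tested (the 10 members and the slow fibre level in each group), an extreme library lay farther from its nearest neighbour than Dixon's 95% critical value of 0.568 allows, and chance alone flags about 1 set in 20. Xirp1 reached a normalized count of 6456 in Active replicate 1, with the next Active mouse at 4697, a gap of 0.617 of the group's range. Actn3 reached 671550 in Active replicate 2, with the next at 610680 (0.628 of the range), and this mouse was the 1 of 7 above the Inactive median. The slow fibre level was 11.76 in Active replicate 3 with the next at 12.62 (0.657 of the range), and the same library held the lowest Active values of Myoz2 (4157), Actn2 (29255) and Ankrd2 (3377). The part of this library in the results was not tested beyond the fits that left it out.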

How the results depend on the processing

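No member passed the threshold under any alternative, although DESeq2 left Csrp3 and Ankrd1 without an adjusted p in Activity Reduction against Inactive muscle, and the lowest edgeR or DESeq2 adjusted p of a member was 0.220, over fits that included 21 with a single library left out. Of 210 alternative values of the members' log2 fold changes, 198 kept their direction and 12 changed sign, in 9 of the 30 differences. Of 630 values with a single library left out, 30 changed sign, in 9 of the differences. In these the values ran from -0.0379 to 0.0717 for Ankrd23, -0.0505 to 0.104 for Xirp1 and -0.0509 to 0.0281 for Actn2 (Active against Inactive), from -0.0891 to 0.0806 for Ankrd1, -0.0627 to 0.112 for Xirp1 and -0.0280 to 0.0299 for Actn3 (Activity Reduction against Inactive), and from -0.121 to 0.0959 for Xirp1, -0.0160 to 0.0565 for Xirp2 and -0.0502 to 0.0572 for Flnc (Activity Reduction against Active). Of the other 21 differences, 14 moved by over 1.5 times without some single library, and none was called. With only the libraries with fewer liver transcripts, log2 fold changes turned to -0.28 for Ankrd1, -0.0406 for Ankrd23, -0.0860 for Xirp1 and 0.10 for Actn2 (Active against Inactive), to -0.0358 for Xirp1 and -0.0615 for Actn3 (Activity Reduction against Inactive) and to 0.21 for Ankrd1, 0.0502 for Xirp1 and -0.0414 for Flnc (Activity Reduction against Active). With the liver division as covariate, Actn2 turned to 0.0388 in Active against Inactive and Xirp1 to 0.00084 in Activity Reduction against Active muscle, and without a filter Actn3 turned to -0.00036 in Activity Reduction against Inactive muscle. In CPM, differences of means turned to -0.114 for Xirp1 and -342 for Actn3 (Activity Reduction against Inactive) and to -8.71 for Xirp2 and -12.6 for Flnc (Activity Reduction against Active). The r of Csrp3 with the slow fibre level turned to 0.114 with group means removed. The cause of these changes was not tested.

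The number of genes called over the whole table depended on the test. For Active against Inactive (0 in edgeR) it was 62 with DESeq2, of which 44 were higher, 3 with only these groups in the fit and 0 to 1 with a library left out. For Activity Reduction against Inactive (2 in edgeR) it was 21 with DESeq2, 0 with RLE scaling, 1 with the liver covariate, 0 with only libraries with fewer liver transcripts, 0 with only these groups and 0 to 6 with a library left out. For Activity Reduction against Active (0 in edgeR) it was 115 with DESeq2, 1 with RLE scaling and 0 to 9 with a library left out. The replicate numbers did not pair the libraries, since 7 of 21 same-numbered pairs had deviations correlated over 0.1 (range -0.234 to 0.439) and 3 of 21 libraries correlated best with their own number. With the replicate block 4 genes were called in Activity Reduction against Inactive muscle and 0 in the other comparisons, and no member was called.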

Other observations

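Markers of the other cell types reported gave 0 calls by edgeR in each comparison. The most abundant were Col22a1 of the myotendinous junction (mean normalized count 1463), Fmod of tendon (898), Cdh5 of endothelium (2957), Myh11 of smooth muscle (1326), Mrc1 of macrophages (314.5), Cfd of adipocytes (1094), Pax7 of satellite cells (137) and Myh8 of regenerating fibres (1542). At an unadjusted p under 0.05, 3 of 6 endothelial and 2 of 6 macrophage markers were higher in Active than in Inactive muscle, where 6.18% of all tested genes were higher and 4.69% lower, and as many were lower in Activity Reduction than in Active muscle, where 6.44% were lower and 6.89% higher. Of 4 myotendinous junction markers, where Xin is known to gather, 1 was higher in Active than in Inactive muscle, 1 was higher and 2 lower in Activity Reduction than in Inactive muscle, where 4.19% of all tested genes were higher and 3.54% lower, and 2 were lower in Activity Reduction than in Active muscle. Of 4 regenerating fibre markers, 2 were higher and 1 lower in Active than in Inactive muscle, 0 had such a p in Activity Reduction against Inactive muscle, and 1 was higher and 2 lower in Activity Reduction than in Active muscle. Summed tendon markers ranged from 677 to 5088 over the 21 libraries. Of the 8 tendon markers most had negative log2 fold changes in Activity Reduction muscle, with 2 positive and a median of -0.59 against Inactive muscle and 1 positive and a median of -0.83 against Active muscle, and all 8 were positive in Active against Inactive muscle (median 0.36). The transcription factor gene Scx went the other way, with a log2 fold change of 0.53 against Inactive and 0.40 against Active muscle, both with such a p. The matrix gene Kera, at -1.45 against Active muscle, was the other tendon marker with such a p. Smooth muscle and adipocyte markers had 0 with such a p in any comparison, and of 3 satellite cell markers 1 was higher in Activity Reduction than in Inactive muscle. Of 9 mature skeletal muscle markers, 1 was higher in Active than in Inactive muscle and 2, Mylpf (0.40) and Acta1 (0.13), were higher in Activity Reduction than in Inactive muscle, and 0 had such a p in Activity Reduction against Active muscle. As in the tissue check, the Mylpf count is not read as its level. Of the 4 heart muscle markers that passed the filter, 0 had such a p in Active against Inactive muscle. Myh6, the alpha myosin heavy chain, was lower in Activity Reduction muscle (-0.63 against Inactive, -0.59 against Active), Tnnt2 was higher against Inactive (0.38) and Myl4 against Active muscle (0.24), with edgeR adjusted p of 0.179 or more. Of the 20 liver markers, 2 were higher in Active than in Inactive muscle and 0 had such a p in the other comparisons.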
